A study of Mus musculus with 2 samples.

Results

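The U1 snRNP is the RNA-protein particle that recognises the 5′ splice site of an intron. The genes described here encode its 3 specific proteins, Snrpc, Snrpa and Snrnp70, and the 7 Sm proteins Snrpb, Snrpd1, Snrpd2, Snrpd3, Snrpe, Snrpf and Snrpg. They were taken by symbol and Entrez gene ID, and all 10 were found among the 44002 rows of the deposited table. The series compared testes of BALB/c mice exposed to bisphenol A (BPA, a building block of plastics that can act on estrogen receptors) with testes of control BALB/c mice, both at postnatal day 45. Each group was 1 poly(A) RNA library made from 3 mixed samples, so none of the differences could be checked against replicates. The 2 libraries are called BPA testes and control testes below. The library of control testes has no treatment label and was assigned by its title, and the labels state no dose, route or length of exposure. The members were chosen by their function and selected on their CPM in both libraries, which were known beforehand, so these values are a description and carry no test.

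In the U1 snRNP the Sm proteins form a ring around a short uridine-rich stretch of the U1 RNA, and the same ring sits on the U2, U4 and U5 RNAs. Snrnp70 and Snrpa each bind a stem-loop of U1 RNA through an RNA recognition motif. Snrpc (U1-C) is held by Snrnp70 and the ring and steadies the pairing of U1 RNA with the 5′ splice site. The testis is known for abundant alternative splicing, much of it in meiotic and postmeiotic germ cells.

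The promoters of the 3 U1-specific genes are shown because 1 of these genes differed widely between the libraries and the other 2 did not. They are windows of 300 bases from RefSeq on GRCm38.p6, and 9 promoter entries were found for 8 of the 10 members. In Snrpa and Snrnp70 the printed window holds 250 bases before the annotated start of the gene and 50 from it on. The Snrpc window holds 191 bases before the annotated start and 109 from it on. Snrpc lies at chr17:27839837-27840136 (plus strand), Snrpa at chr7:27196222-27196521 (minus strand, the more upstream of its 2 entries) and Snrnp70 at chr7:45395693-45395992 (minus strand). Capitals mark matches on either strand to the motif CCGGAAG of ETS factors, the GC box motif GGGCGG, the TATA box motif TATAAA and the estrogen response core motif GGTCA. In Snrpa the GC box match overlaps an estrogen response core match.
Snrpc: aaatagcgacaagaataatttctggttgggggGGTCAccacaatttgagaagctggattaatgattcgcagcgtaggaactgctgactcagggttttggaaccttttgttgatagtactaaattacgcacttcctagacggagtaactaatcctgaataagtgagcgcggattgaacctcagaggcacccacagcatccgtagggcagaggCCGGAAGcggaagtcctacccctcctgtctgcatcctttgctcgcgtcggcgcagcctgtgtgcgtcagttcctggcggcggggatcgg
Snrpa: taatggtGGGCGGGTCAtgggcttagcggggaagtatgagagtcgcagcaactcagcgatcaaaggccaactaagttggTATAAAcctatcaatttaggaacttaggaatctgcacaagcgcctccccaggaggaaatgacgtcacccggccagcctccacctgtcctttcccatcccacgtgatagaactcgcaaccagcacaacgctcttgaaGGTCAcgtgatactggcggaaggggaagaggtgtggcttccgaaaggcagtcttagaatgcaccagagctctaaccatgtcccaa
Snrnp70: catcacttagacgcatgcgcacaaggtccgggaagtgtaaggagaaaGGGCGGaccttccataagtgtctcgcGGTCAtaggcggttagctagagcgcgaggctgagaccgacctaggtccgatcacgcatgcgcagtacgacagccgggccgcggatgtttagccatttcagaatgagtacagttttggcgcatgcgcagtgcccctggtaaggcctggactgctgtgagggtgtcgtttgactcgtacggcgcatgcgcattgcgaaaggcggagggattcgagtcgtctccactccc
Of the 3 windows shown, CCGGAAG was in that of Snrpc. It was also in the windows of Snrpe and Snrpg, thus in 3 of the 9 windows of these genes, and in 8.86% of all 32851 promoter windows. GGGCGG was in the Snrpa and Snrnp70 windows shown, in 4 of the 9 and in 35.7% of all windows. TATAAA was in the Snrpa window shown, in 1 of the 9 and in 13.6% of all windows. GGTCA was in all 3 windows shown, in 5 of the 9 and in 40.5% of all windows. CCAAT was in none of the 3 shown, in 3 of the 9 and in 37.4% of all windows. The second Snrpa window, at chr7:27195711-27196010, held none of these 5 motifs. This window and that of Snrpd2, which holds a GGGCGG match, lie wholly after the annotated start of their genes.

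Values are CPM, reads that the authors scaled to a common total in each library. Summed, these values stand for 45189255 reads from BPA testes and 41729329 from control testes. Intervals are 95% and exact (Poisson for a level, Clopper-Pearson for a ratio), and they cover counting error only. Poly(A) RNA from whole testis cannot tell fewer cells of a type from less RNA per cell. Germ cell markers summed to 5345 CPM in BPA testes and 5245 CPM in control testes, with 0 of 6 genes 2-fold apart. Adipocyte markers summed to 25.4 CPM in BPA testes against 79.4 CPM in control testes, and 4 of 6 (Fabp4, Cidec, Cfd and Car3) were lower there. The other 2 were within 2-fold, Adipoq with 15.4 CPM in BPA testes against 17.2 CPM in control testes, and Plin1 with 4.47 CPM in BPA testes against 4.88 CPM in control testes. In BPA testes Cfd and Cidec were listed at 0 and were filled from the deposited fold change, to 0.705 and 0.375 CPM. Among 28 markers of Sertoli, Leydig, macrophage, endothelial, peritubular, epididymal and red blood cells, 1 was 2-fold apart (Rhox8, lower), and 4 (Tagln, Defb20, Lcn5 and Rnase10) were listed at 0 or without a value. The part of such cells in the values below was not tested.

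Snrpc stood apart from the other U1-specific genes. It had 4.41 CPM (200 reads, interval 3.82 to 5.06) in BPA testes, against 76.8 CPM (3211 reads, 74.2 to 79.5) in control testes. Snrpc was thus 17.4-fold lower in BPA testes (15.1 to 20.2), a log2 ratio of -4.09 with 0.1 CPM added to each value. By CPM it ranked 12975 of 19389 genes in BPA testes and 3010 in control testes. The 19389 genes are those that reached 1 CPM in at least 1 library, and 379 of them (1.95%) were 2-fold or more lower in BPA testes. Ordered from the lowest log2 ratio, Snrpc was number 11. Of 7578 genes whose mean lay between 10 and 100 CPM, 37 (0.488%) were 2-fold or more lower, and 3 of these, Snrpc included, were at or below its ratio. The authors' deposited table gives Snrpc a q-value of 2.73e-14 and a log2 fold change of -4.12. The table calls 12 of 29279 genes lower, 0.041%, by a call of its own and not by the 2-fold rule used here. With 1 library per group its q-values cannot cover spread between animals or library preparations.

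Snrpa, which also takes part in control of polyadenylation, was close to level. It had 55.1 CPM (2500 reads) in BPA testes and 52.3 CPM (2185 reads) in control testes, a ratio of 1.05 (0.995 to 1.12). Snrnp70, the protein that Snrpc needs to join the particle, had 96.3 CPM (4370 reads) in BPA testes and 107.8 CPM (4506 reads) in control testes. Its ratio of 0.893 (0.857 to 0.932) was below 1 by more than counting error, which leaves out all spread between animals and library preparations. The authors' deposited table gives both genes, and each of the Sm genes, a q-value of 0.99996.

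Reads of the 3 U1-specific genes were thus divided differently in the libraries. Snrpc took 2.83% (2.45 to 3.24) of them in BPA testes and 32.4% (31.5 to 33.4) in control testes. Snrnp70 took 61.8% in BPA testes and 45.5% in control testes, and Snrpa took 35.4% in BPA testes and 22.1% in control testes. For each read of Snrpa there were 0.08 reads of Snrpc in BPA testes and 1.47 in control testes, a comparison within each library that no scaling between them can alter. In sum the 3 genes had 155.8 CPM in BPA testes and 236.9 CPM in control testes, while Snrpa and Snrnp70 alone had 151.4 CPM in BPA testes and 160.1 CPM in control testes.

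**Figure D1:**
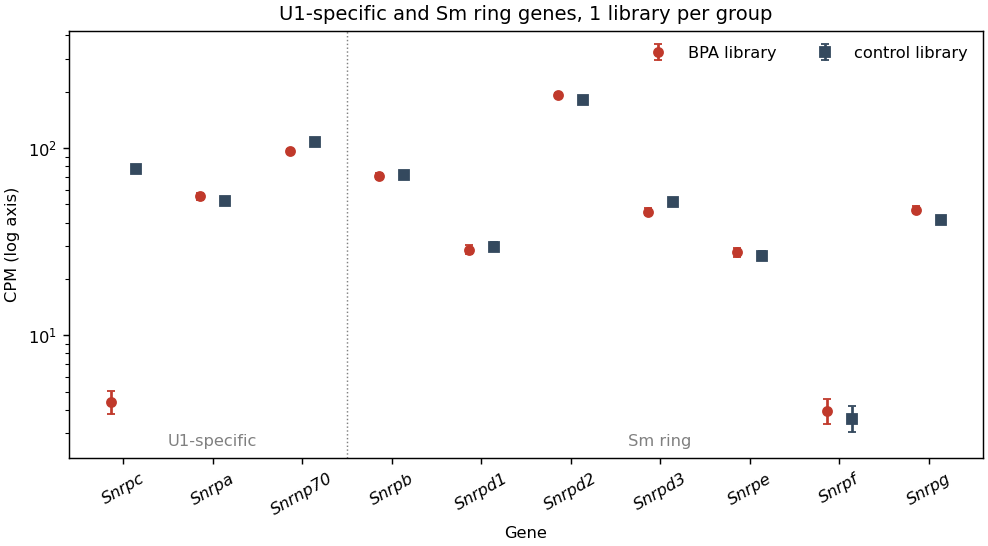
CPM of the 10 genes on a log axis in BPA testes (circles) and control testes (squares), with exact 95% counting intervals and 1 library per group. Snrpc is the gene whose points lie far apart, at 4.41 CPM in BPA testes and 76.8 CPM in control testes; the pairs of the other 9 genes lie close together.

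The Sm ring genes had similar levels in both libraries. None of the 7 was 2-fold apart, against 3.28% of all genes at 1 CPM or more, with 256 genes (1.32%) higher and 379 lower. Of genes with a mean between 10 and 100 CPM, 0.858% were 2-fold apart. The log2 ratios of the 7 Sm genes ran from -0.17 to 0.19, with 4 above and 3 below 0. Their median was 0.06, against 0.004 for all genes. Their summed level was 416 CPM in BPA testes and 404 CPM in control testes, a ratio of 1.03 (1.01 to 1.05).

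Snrpd2, which pairs with Snrpd1 in the ring, was the most abundant by CPM, with 192.5 CPM in BPA testes and 179.6 CPM in control testes, 7.16% higher (3.90 to 10.5). Snrpd1 had 28.6 CPM in BPA testes and 29.7 CPM in control testes, and its ratio of 0.963 (0.891 to 1.04) did not leave counting error. Snrpb, which encodes the SmB protein, had 70.9 CPM in BPA testes and 71.4 CPM in control testes, a ratio of 0.992 (0.944 to 1.04). Its partner in the ring, Snrpd3, had 45.7 CPM in BPA testes and 51.5 CPM in control testes, a ratio of 0.888 (0.835 to 0.943). Both members of each of these 2 pairs thus stayed well within 2-fold.

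The remaining subunits, Snrpe, Snrpf and Snrpg, join the ring as a preformed trimer. Snrpe had 27.8 CPM in BPA testes and 26.6 CPM in control testes, a ratio of 1.04 (0.961 to 1.13). Snrpg had 46.8 CPM in BPA testes and 41.1 CPM in control testes, and its ratio of 1.14 (1.07 to 1.21) was the highest of the 10 genes. Snrpf had only 3.92 CPM (178 reads) in BPA testes and 3.59 CPM (150 reads) in control testes, a ratio of 1.09 with the widest interval of the 10 (0.875 to 1.37). Counting error was exceeded by 4 of the 9 genes other than Snrpc, namely Snrpd2 and Snrpg (higher) and Snrnp70 and Snrpd3 (lower). The ratios of these 9 genes spanned 0.36 on the log2 scale, a range that also held 58.2% of all genes at 1 CPM or more and 74.4% of those with a mean from 10 to 100 CPM. Summed, the 9 genes had 568 CPM in BPA testes and 564 CPM in control testes (ratio 1.01, 0.989 to 1.02).

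**Figure D2:**
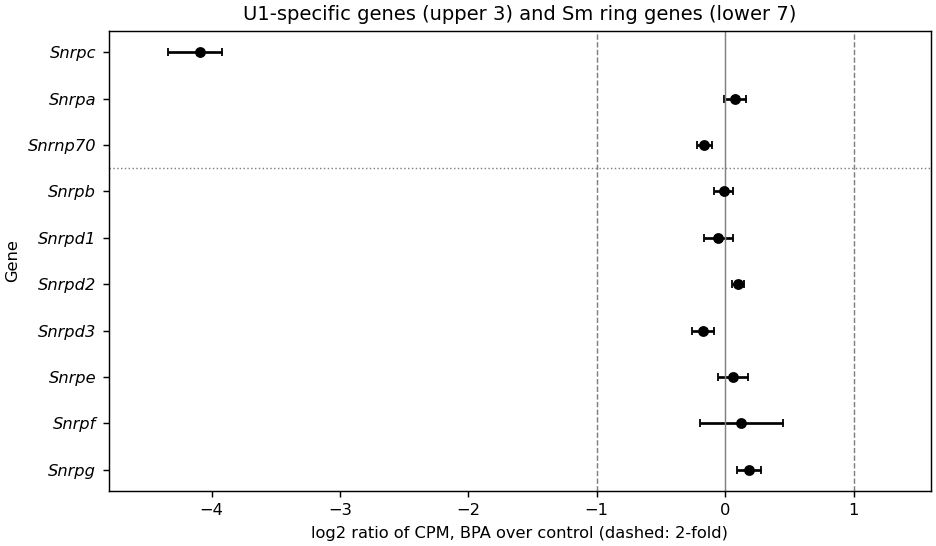
The log2 ratio of CPM (BPA over control, 0.1 CPM added) of each gene, with bars for the exact 95% counting interval of the ratio and dashed lines at 2-fold. Snrpc is at -4.09 and the other 9 genes lie between -0.17 and 0.19.

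Levels can be compared between genes only per length, and CPM was divided by the length of the GENCODE principal transcript of each gene. Where a gene has several principal transcripts, as Snrpc and Snrpa do, their mean length was used. In BPA testes Snrpc, at 5.06 CPM per kb, was number 9 of the 10 genes, and its interval overlapped that of Snrpf at 4.56 CPM per kb. In control testes Snrpc had 88.2 CPM per kb, second to Snrpd2, and its interval overlapped neither neighbour in the order. The order of the other genes was much the same in both libraries. Snrpd2 was highest, with 135.5 CPM per kb in BPA testes and 126.5 CPM per kb in control testes, and Snrpb, Snrnp70 and Snrpe lay between 53.0 and 62.1 CPM per kb in the 2 libraries. Then came Snrpg and Snrpa, whose intervals overlapped in both libraries, then Snrpd1 and Snrpd3, and Snrpf was lowest. This order depends on the length used. The length of all annotated exons merged was also used, chosen after the data were seen. By it Snrpc had 0.676 CPM per kb in BPA testes and 11.8 CPM per kb in control testes. It was then number 10 of the 10 genes in BPA testes and number 9 in control testes. This is because its merged exons span 6521 bases, against a mean of 871 over its principal transcripts. By merged exons Snrnp70 lay below Snrpd1 and Snrpd3 in both libraries.

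**Figure D3:**
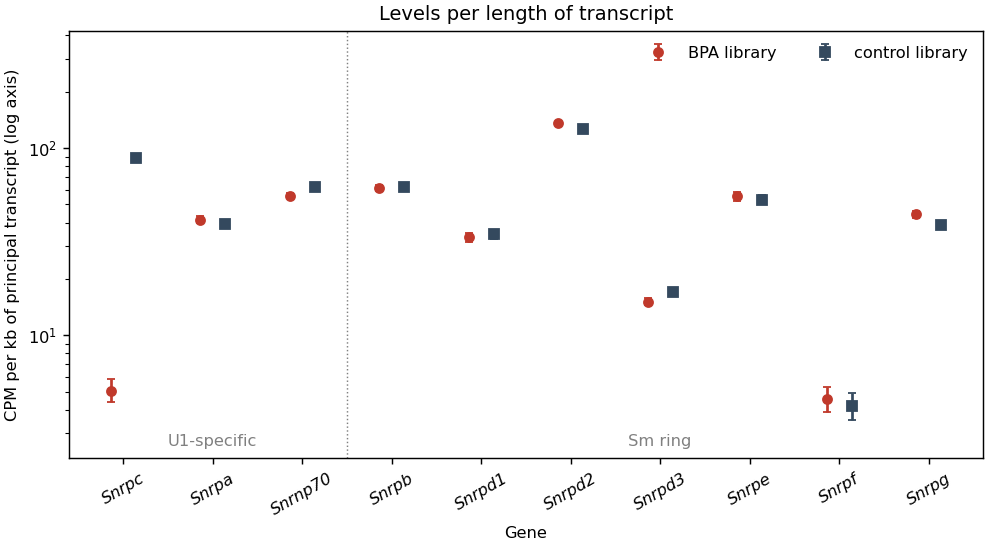
CPM per kb of the GENCODE principal transcript (log axis) in BPA testes (circles) and control testes (squares), with exact 95% counting intervals. Lengths are means where a gene has several principal transcripts. In control testes Snrpc (88.2) lies below Snrpd2 (126.5) only, and in BPA testes Snrpc (5.06) lies beside Snrpf (4.56).

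The genes lie on several chromosomes of GRCm38, the build that mm10 names. Snrpc (gene ID 20630) spans chr17:27840028-27851968, Snrpa (53607) chr7:27187006-27196271 and Snrnp70 (20637) chr7:45376454-45395742. Snrpb (20638) spans chr2:130171636-130179382 and Snrpd2 (107686) chr7:19149445-19152734. Snrpd3 (67332) spans chr10:75518042-75535440 and Snrpf (69878) chr10:93583029-93589658. Snrpe (20643) spans chr1:133603871-133610280, Snrpg (68011) chr6:86371540-86378902, and Snrpd1 (20641) is on chromosome 18. Exons of Snrpa, Snrpd3 and Snrpf overlap those of a gene on the other strand, in Snrpf over up to 567 of its 861 exon bases. No step that marks strand is described in the labels' protocols, so reads of the overlapping parts cannot be assigned. Of the 50-base words in the principal transcripts, 28.4% in Snrpe, 26.7% in Snrpc, 21.8% in Snrpa, 21.3% in Snrpf and 18.6% in Snrpg also occur in transcripts of other loci. That share was 13.8% in Snrpd1, 11.7% in Snrpd2 and under 0.1% in Snrpb, Snrnp70 and Snrpd3. The labels do not say how such reads were counted, which leaves the level of the genes with a high share uncertain.

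Several genes near Snrpc were also 2-fold apart. Of 31 genes at 1 CPM or more within 1 Mb of Snrpc, 3 were 2-fold or more higher and 4 lower in BPA testes, together 22.6%, against 3.28% of all genes. Armc12, needed for the sperm mitochondrial sheath, had 3.15 CPM in BPA testes against 90.7 CPM in control testes. The zinc finger gene Zfp523 had 4.58 CPM in BPA testes against 24.7 CPM in control testes, 5.39-fold lower (4.64 to 6.29). Pacsin1, an adaptor of membrane trafficking, was at 0.419 CPM in BPA testes and 2.25 CPM in control testes, and the fourth lower gene was Gm41506. For both Pacsin1 and Gm41506 the value in BPA testes was listed as 0 and filled from the deposited fold change. In the other direction Nudt3, a diphosphoinositol polyphosphate hydrolase, had 39.8 CPM in BPA testes against 6.10 CPM in control testes. The ribosomal protein gene Rpl10a had 12.6 CPM in BPA testes against 4.26 CPM in control testes, and Srpk1, a kinase of SR splicing factors, had 87.5 CPM in BPA testes against 42.3 CPM in control testes. Nudt3, Zfp523 and Rpl10a share exon bases with other genes, and Rpl10a has 20.8% of its words elsewhere too. The immediate neighbours Ilrun (3.97 CPM in BPA testes and 6.39 CPM in control testes) and Uhrf1bp1 (4.87 CPM in BPA testes and 5.98 CPM in control testes), which flank Snrpc at 19.5 and 4.54 kb, were within 2-fold. Around the other 9 members the same windows held 11 to 87 genes, of which at most 1 each was 2-fold apart. Whether position bears on the level of Snrpc was not tested.

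**Figure D4:**
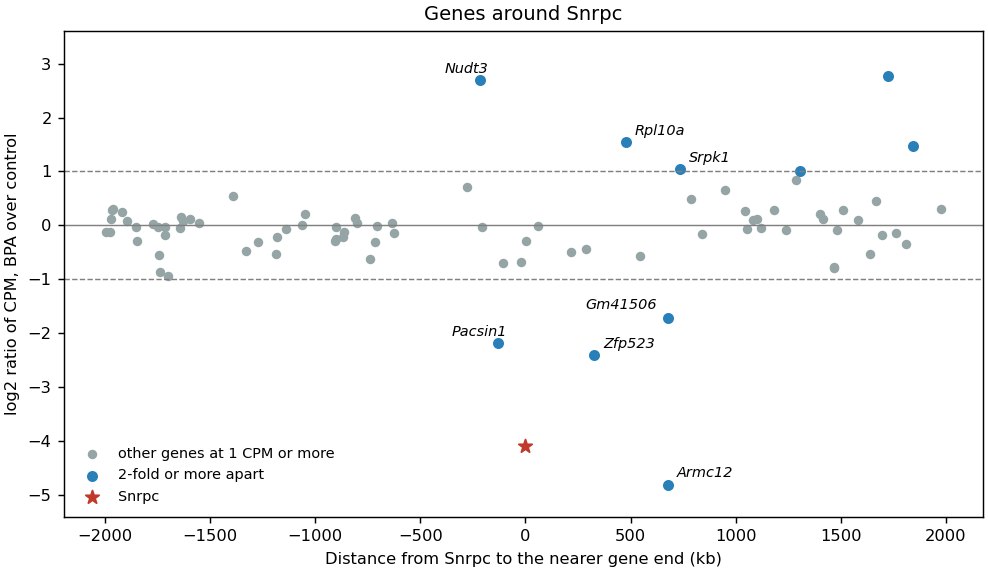
The log2 ratio of CPM (BPA over control) of genes at 1 CPM or more within 2 Mb of Snrpc, by distance in kb, with dashed lines at 2-fold. Within 1 Mb, 7 of 31 genes other than Snrpc (blue, named) lie outside the dashed lines, 3 above and 4 below.

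Over the 2 libraries, the genes whose pair of values lay nearest to that of Snrpc were found by distance in log2(CPM + 0.1). The nearest was Armc12, at a distance of 0.53, followed by Fam229a at 0.69, which had 5.29 CPM in BPA testes and 49.1 CPM in control testes. Gm10488, at a distance of 1.12, had 4.50 CPM in BPA testes and 35.3 CPM in control testes, and shares 100% of its words with other loci. The integrin gene Itgae, at 1.40, had 10.2 CPM in BPA testes and 46.4 CPM in control testes. The Ras GTPase-activating gene Rasa3, at 1.46, had 11.4 CPM in BPA testes and 52.5 CPM in control testes. With 1 library per group this likeness rests on 2 values per gene.

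In the wider snRNP pathway the shares of genes 2-fold apart and the median were near those of all genes. Of 109 further genes in 11 lists, 108 were at 1 CPM or more, 2 (1.85%, Snrnp40 and Usp39) were 2-fold higher and 0 lower, against 1.32% and 1.95% of all genes. Their median log2 ratio was 0.0056, against 0.004 for all genes. The gene without a value was Snrpn, which encodes a close relative of the SmB protein. None of 10 U1-associated factors was 2-fold apart (median -0.06). In this list, Prpf39, whose yeast relative is a U1 protein, had 11.8 CPM in BPA testes and 13.7 CPM in control testes, and Tial1, which helps U1 bind weak 5′ splice sites, had 51.7 CPM in BPA testes and 59.0 CPM in control testes. The list also held Snrnp27, which belongs to the tri-snRNP.

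Assembly of the ring begins in the cytoplasm, where arginines of Sm tails are methylated and the SMN complex loads the proteins on the RNA. Of 9 SMN complex genes 0 were 2-fold apart (median -0.07), although Smn1, the core subunit, came near with 1.85 CPM in BPA testes and 3.66 CPM in control testes (ratio 0.506, 0.383 to 0.664). Gemin5, which reads the Sm site of the RNA, had 25.4 CPM in BPA testes and 35.1 CPM in control testes. Of 7 genes of Sm methylation 0 were 2-fold apart (median 0.13); the methyltransferase gene Prmt9, known for methylating the U2 protein Sf3b2 rather than Sm tails, had 6.06 CPM in BPA testes and 4.57 CPM in control testes, and Coprs, a partner of Prmt5, had 62.9 CPM in BPA testes and 74.3 CPM in control testes. Tgs1, which adds the trimethyl cap that returns snRNPs to the nucleus, had 5.95 CPM in BPA testes and 4.07 CPM in control testes, and Xpo1, the export receptor, had 72.6 CPM in BPA testes and 64.8 CPM in control testes. These belong to 9 genes of snRNA export, cap and import, of which 0 were 2-fold apart (median 0.05).

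At the level of snRNA synthesis, 0 of 10 genes of snRNA transcription (median -0.03) and 0 of 14 Integrator genes (median -0.0001) were 2-fold apart. Snapc2 had 13.2 CPM in BPA testes and 9.59 CPM in control testes, and Ell, an elongation factor, had 44.9 CPM in BPA testes and 52.5 CPM in control testes. In Integrator, which trims snRNA ends, Ints3 had 29.9 CPM in BPA testes and 26.3 CPM in control testes, and Ints2 had 16.2 CPM in BPA testes and 18.3 CPM in control testes. The LSm proteins form the like ring of U6 RNA and, with Sm proteins, that of the histone-processing U7 RNA. None of 11 genes listed for LSm proteins was 2-fold apart (median -0.005). This list also held Lsm1 and Naa38, which are not subunits of these rings. The U7 subunit Lsm10 had 39.2 CPM in BPA testes and 49.3 CPM in control testes. The U7 subunit Lsm11 had 5.11 CPM in BPA testes and 4.38 CPM in control testes.

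Among other particles, 0 of 12 U2 genes were 2-fold apart (median -0.02). The U2 subunit Snrpa1 had 28.2 CPM in BPA testes and 33.8 CPM in control testes, and Sf3b3 had 51.0 CPM in BPA testes and 57.3 CPM in control testes. The U11/U12 particles of the minor spliceosome take the place of U1 and U2 at a rare class of introns, and 0 of 10 of their genes were 2-fold apart (median 0.01). Zrsr2 had 9.06 CPM in BPA testes and 11.7 CPM in control testes, and Snrnp48 had 7.27 CPM in BPA testes and 5.86 CPM in control testes. The 2 genes that were 2-fold higher were among the 16 of the U4/U6 and U5 snRNPs (median 0.02). They were Snrnp40, a U5 subunit, with 13.8 CPM in BPA testes against 0.622 CPM in control testes, and the tri-snRNP factor Usp39, with 20.1 CPM in BPA testes against 7.99 CPM in control testes. The Snrnp40 value in control testes was listed as 0 and filled from the deposited fold change.

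**Figure D5:**
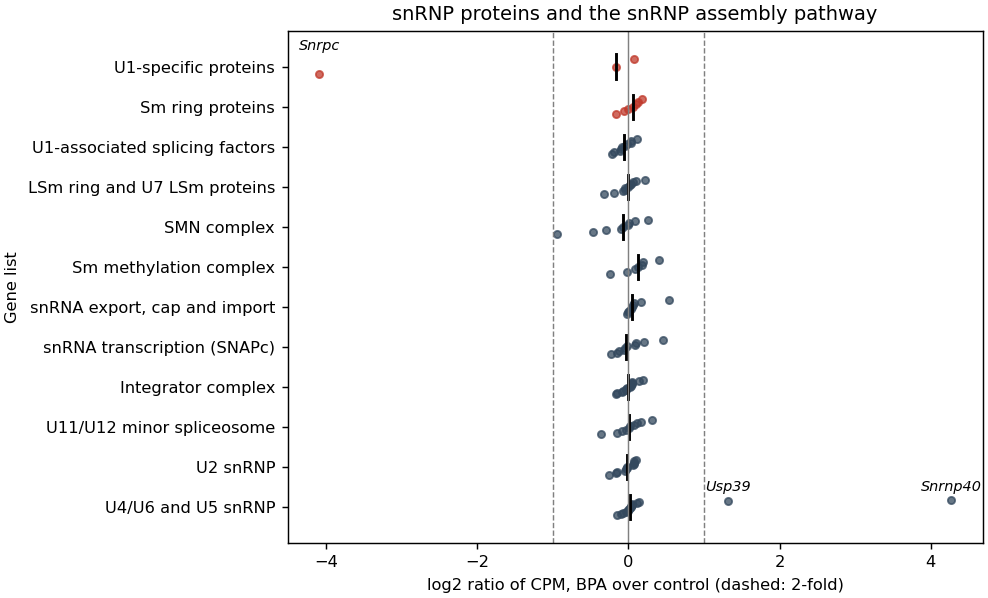
The log2 ratio of CPM (BPA over control) of each gene at 1 CPM or more in 12 lists, the U1-specific and Sm genes in red and the rest in dark blue, with a bar at each list's median and dashed lines at 2-fold. Snrpc lies below -4, Usp39 and Snrnp40 lie above 1, and all other genes of these lists lie between the dashed lines.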

How the data were processed

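Poly(A) RNA of testis was sequenced in 1 library per group. The submitters' processing notes name HISAT2 2.0.4, HTSeq 0.6.1 and build mm10. The annotation, the strand setting and the test behind the p-values are not named in the labels. The authors deposited 1 value per library, headed as a read count, but the deposited values are CPM: their sums are 995266 (BPA) and 997834 (control). Of 44002 rows 10618 carry no value. Deposited CPM under 1 are written as 0. The authors' deposited log2 fold change is BPA over control, and its p-values and q-values are theirs.

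All CPM above 0 were whole multiples, within 2.33e-10, of 0.0220 (BPA) and 0.0239 (control), taken as 1 read. A listed 0 beside a value of 1 CPM or more was filled from the deposited fold change (1404 values, whole reads within 0.01). All 10 members were listed above 0 in both libraries. A gene was called 2-fold apart on log2(CPM + 0.1) if it reached 1 CPM in at least 1 library. No count model was fitted and no test between conditions was made, because each group is 1 library. The size rule and the intervals were tried on simulated Poisson reads, which hold no spread between animals or library preparations. The members and lists were chosen with earlier results of these data known. Named are all members, list genes that were 2-fold apart or else the 2 largest log2 ratios in size, 2-fold genes within 1 Mb of Snrpc, and the 5 genes nearest to it.

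Symbols and positions came from RefSeq (GRCm38.p6; 40269 of 41571 numeric IDs matched), exons, principal transcripts and 50-base words from GENCODE M21. Python 3.11.15, numpy 2.4.6, scipy 1.17.1 and pandas 2.3.3 were used. Alternatives covered scaling, floor, pseudocount, fold, listed zeros, counting bounds, window and transcript length.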

Additional observations from a re-analysis of the deposited data

How the results depend on the processing

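The log2 ratio of Snrpc (-4.09) became -3.85 with a pseudocount of 1 CPM and stayed within its counting interval under both scalings and without a pseudocount. For the other 9 genes, all 36 values under these 4 settings lay within the counting interval. The median over the 3 U1-specific genes (-0.16) became -0.043 without Snrpc, and their mean was -1.39, which Snrpc sets. Within 0.5 Mb of Snrpc 4 of 12 genes at 1 CPM or more were 2-fold apart (33.3%), and within 2 Mb 10 of 84 (11.9%). Within 1 Mb it was 7 of 31 (22.6%). The 2 scalings differed from the deposited one by 0.003 and 0.004 on the log2 scale. The 256 genes higher and 379 lower became 82 and 123 with a pseudocount of 1 CPM, 80 and 103 with a floor of 4 CPM, 55 and 85 at 4-fold, 686 and 937 with listed zeros as 0, and 100 and 162 at the nearer counting bound. An exact binomial test of the reads with Benjamini-Hochberg adjustment, which compares these 2 libraries and not the conditions, called 3330 higher and 3323 lower. By merged exon length, chosen after the data were seen, Snrpc and Snrpf traded places 9 and 10 in BPA testes. Snrpc moved to 9 in control testes, where it was 2. Snrnp70, then at 12.6 CPM per kb in BPA testes and 14.1 CPM per kb in control testes, fell below Snrpd1 and Snrpd3. No paired analysis was possible because each group has 1 library.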

Other observations

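Of 25 pseudogenes that share 50-base words with 8 of the 10 genes, 3 reached 1 CPM in at least 1 library, 8 were listed at 0 in both, and 14 had no row or no value. A listed 0 can stand for any value under 1 CPM, so it does not show that a pseudogene had no reads. The copy that shares most words with Snrpc, Gm2991 on chromosome 15 (15.3% of the words), had 1.96 CPM in BPA testes and 2.06 CPM in control testes. Snrpc shares words with 141 loci in all, of which 7 are pseudogenes. The 44 with a value summed to 822.5 CPM in BPA testes and 823.0 CPM in control testes, counted over whole genes. The highest was Prkcq, which shares 3.53% of the words, at 146.8 CPM in BPA testes and 143.8 CPM in control testes. How many of these reads fall in shared words was not tested. Snrpert, which shares 28.2% of the words of Snrpe, had 1.43 CPM in BPA testes and 1.87 CPM in control testes. Gm8186, which shares 18.1% of the words of Snrpg, had 4.94 CPM in BPA testes and 9.02 CPM in control testes. Gm14277 of Snrpd1, Gm13092 of Snrpf and Gm10120 of Snrpd2 were listed at 0 in both libraries.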
